A study of Mus musculus with 12 samples.

Results

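The genes described here are the 10 mouse genes of MHC class II antigen presentation H2-Aa, H2-Ab1, H2-Eb1, Cd74, H2-DMa, H2-DMb1, H2-DMb2, H2-Oa, H2-Ob and Ciita. They were found by gene name among the 34745 genes of the deposited table, and all 10 were present. RNA from total femoral bone marrow of 12 male ICR mice, an outbred stock, was sequenced, with 1 library per mouse and 3 mice per group. Normal mice received saline by mouth for 7 days and saline intraperitoneally on days 5 to 7. Model mice received oral saline together with cyclophosphamide, a cytotoxic drug that lowers white cell numbers, at 80 mg/kg per day on days 5 to 7. QJSB mice received the same cyclophosphamide and Qi-Jing-Sheng-Bai granule, a herbal preparation, at 3 g/kg per day for 7 days. Leucogen mice received the same cyclophosphamide and leucogen, a drug given against leucopenia, at 20 mg/kg per day for 7 days. No age was given for the mice, and no group received either drug without cyclophosphamide.

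MHC class II molecules are pairs of an alpha and a beta chain that carry peptides from endosomes to the cell surface, where CD4+ T cells read them. The invariant chain, encoded by Cd74, holds the newly made pair and directs it to endosomes, the DM molecule exchanges the last piece of the invariant chain for other peptides, and the DO molecule inhibits DM. Transcription of these genes depends on the coactivator CIITA, which binds no DNA itself but docks on a complex of RFX, NF-Y and CREB factors at the X and Y boxes of their promoters. In bone marrow, B cells, dendritic cells and macrophages are the known carriers of class II molecules.

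In the GRCm38 coordinates of the table, 8 of the members lay close together in the MHC on chromosome 17. H2-Oa lay at chr17:34092340-34095234, H2-DMa at chr17:34135182-34139101, H2-DMb2 at chr17:34143307-34151553 and H2-DMb1 at chr17:34153072-34160230. H2-Ob followed at chr17:34238903-34245907, then H2-Ab1 at chr17:34263209-34269418, H2-Aa at chr17:34282744-34287827 and H2-Eb1 at chr17:34305877-34316199. Ciita lay at chr16:10488178-10527564.

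Promoter windows of RefSeq (build GRCm38.p6, 250 bases before to 50 bases after a transcript start) were given for 7 of the 10 members, with 8 windows in all. Each window was read on both strands for CCNNGNNAC, the core of the X1 box that RFX binds, and for GATTGG, the Y box core that NF-Y binds. GATTGG was present for 7 of these 7 members and CCNNGNNAC for 6, whereas 16.1% and 47.4% of all 32851 promoter windows held them. The X1 core followed after 10 to 30 bases by GATTGG on the same strand was found for 3 members, H2-Oa (27 bases between), H2-DMb1 (27 bases) and H2-Ob (24 bases), and in 0.493% of all windows. The counts above are per member, whereas the shares are per window. CCNNGNNAC and GATTGG of H2-DMa lay in different windows, and both its windows belong to starts upstream of the gene's coordinates in the table. A match describes letters in a window and was not tested as a binding site. The stretches below start 200 bases before the start and end 10 bases after the last upstream GATTGG in either orientation. They show the DO genes, which hold the spaced pair, and a classical alpha and beta chain gene, which do not hold it in this exact form. Only exact matches were sought. In the H2-Aa and H2-Eb1 stretches, gctggcaac and actagcaac lie 10 to 30 bases before GATTGG. These differ from CCNNGNNAC in the first base alone, so the lack of an exact pair does not show that an X box is absent. Capitals mark CCNNGNNAC and GATTGG on either strand, so that GATTGG on the opposite strand appears as CCAATC. The stretches lie at chr17:34092179-34092350 (H2-Oa), chr17:34238705-34238862 (H2-Ob), chr17:34287857-34288023 (H2-Aa, minus strand) and chr17:34305667-34305847 (H2-Eb1), the others on the plus strand.
H2-Oa: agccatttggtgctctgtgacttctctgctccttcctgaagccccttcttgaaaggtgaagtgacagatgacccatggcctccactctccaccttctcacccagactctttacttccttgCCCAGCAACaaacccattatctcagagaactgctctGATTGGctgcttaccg
H2-Ob: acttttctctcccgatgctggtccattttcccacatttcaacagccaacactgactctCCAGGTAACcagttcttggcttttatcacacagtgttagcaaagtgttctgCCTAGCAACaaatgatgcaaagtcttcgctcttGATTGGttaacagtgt
H2-Aa: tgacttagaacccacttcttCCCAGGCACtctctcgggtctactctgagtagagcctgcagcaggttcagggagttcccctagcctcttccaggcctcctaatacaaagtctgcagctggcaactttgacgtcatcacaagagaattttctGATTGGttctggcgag
H2-Eb1: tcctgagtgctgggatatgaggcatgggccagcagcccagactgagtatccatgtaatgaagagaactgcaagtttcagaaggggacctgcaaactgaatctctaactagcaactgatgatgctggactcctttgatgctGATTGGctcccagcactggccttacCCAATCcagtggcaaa

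Library totals ran from 11172547 to 18545198 counts. Levels are given as CPM, read counts relative to the TMM-scaled total of the library, or as deposited FPKM, fragments scaled by transcript length and library size, which alone allows genes of different length to be compared. The marrow label was checked against lists of cell type markers. In the 3 normal libraries the 8 neutrophil markers summed to 16225 to 19774 CPM, the 7 erythroid markers to 7592 to 8264 CPM and the 10 B cell markers to 1265 to 1333 CPM. In the 3 model libraries the B cell markers summed to only 12.1 to 59.4 CPM and the erythroid markers to 212 to 563 CPM. In QJSB marrow, QJSB 1 stood above QJSB 2 and QJSB 3 for the chain genes, Cd74, H2-DMa and Ciita, and values without it are given where it decides one.

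In normal marrow, Cd74 had the highest level of the 10 genes, 94.0 ± 11.0 FPKM (SD, n = 3). H2-Aa followed at 32.0 ± 7.64 FPKM, H2-Ab1 at 25.6 ± 3.75 FPKM and H2-Eb1 at 23.5 ± 18.9 FPKM, and the ranges of these 3 chain genes overlapped. The next 4 genes, H2-DMb2 at 8.64 ± 1.34, Ciita at 7.86 ± 1.35, H2-DMa at 7.65 ± 1.20 and H2-Ob at 7.14 ± 1.12 FPKM, each overlapped their neighbours. H2-DMb1 at 5.17 ± 0.476 FPKM and H2-Oa at 2.74 ± 0.791 FPKM lay below these without overlap. In model marrow the order changed below Cd74, which stayed highest at 27.5 ± 10.5 FPKM. H2-DMa went from rank 7 to rank 2 at 9.62 ± 4.75 FPKM, with a range that overlapped the 3 chain genes, and H2-Ob went from rank 8 to rank 10 at 0.207 ± 0.182 FPKM.

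**Figure D1:**
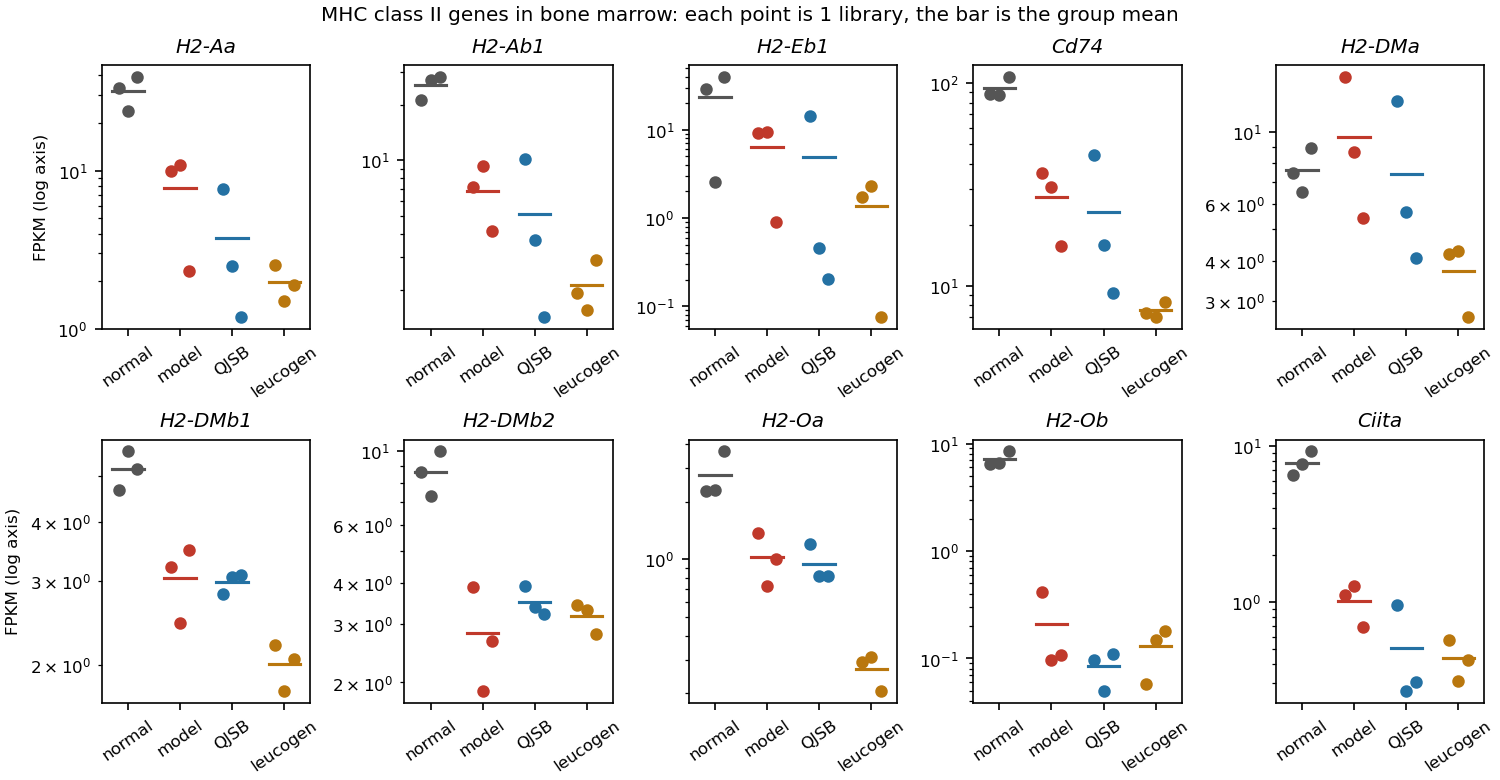
FPKM of each of the 10 class II genes (log axis, a panel per gene) in the 3 libraries of each of the 4 groups, with points for libraries and bars for group means. For H2-Ob and Ciita the normal libraries sit far above those of the other groups, whereas for H2-DMa and H2-Eb1 they overlap with the model libraries.

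Model against normal marrow asks what cyclophosphamide did to the class II genes. Of the 10 members, 8 were lower in model marrow, 0 were higher and 2 (H2-Eb1 and H2-DMa) did not pass the test (edgeR quasi-likelihood test, Benjamini-Hochberg adjusted p under 0.05 and a fold change over 1.5). The median log2 fold change over the members was -1.96, against 0.02 over the 14752 genes tested. Across all genes tested, 19.0% were called lower and 16.1% higher. The 8 genes that passed were the same 8 whose libraries did not overlap between the groups, and of all genes tested 27.9% lay lower and 27.5% higher without overlap. These are bulk measurements, in which fewer cells of a type and less RNA per cell cannot be told apart. The p-values rest on 3 mice a group. With totals in place of TMM scaling, 56.3% of all called genes were higher in model marrow, against 45.8% with TMM, and the members' directions did not change.

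**Figure D2:**
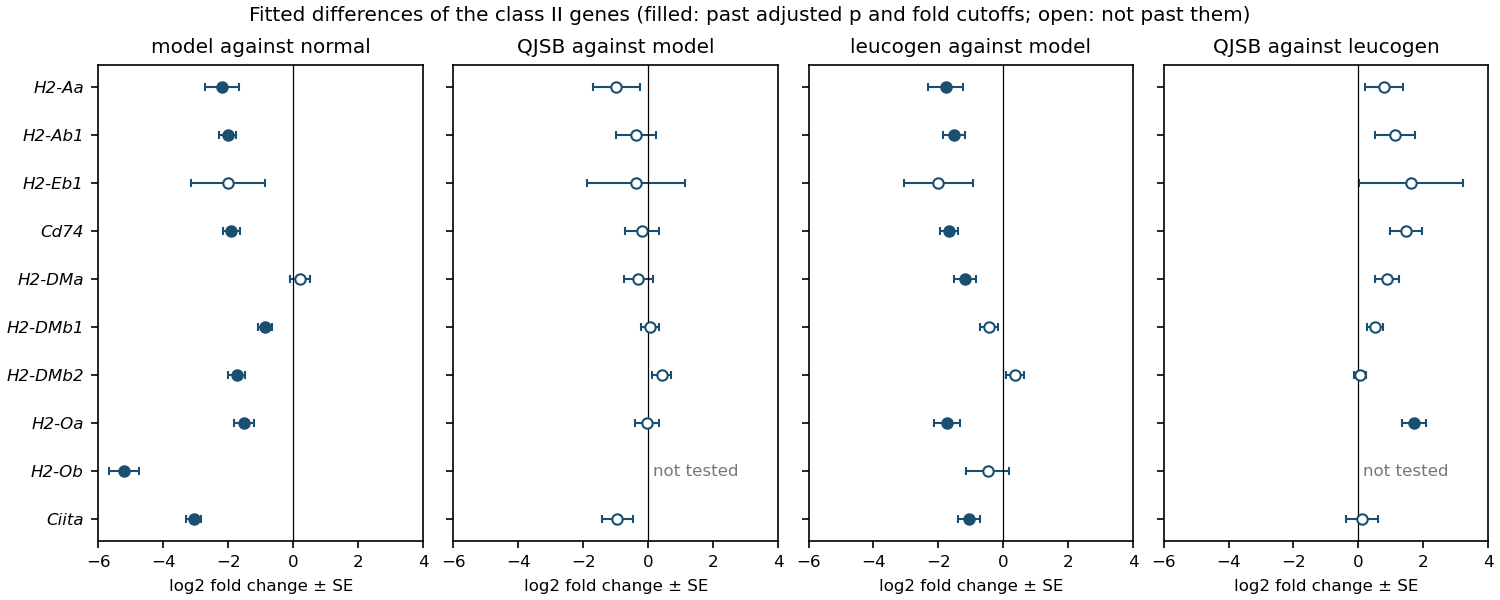
Log2 fold change (x axis, with SE) of the 10 class II genes in 4 comparisons, filled where both cutoffs were passed and open where not. In model against normal 8 genes are filled to the left of 0, in QJSB against model none is filled, in leucogen against model 6 are filled on the left and in QJSB against leucogen only H2-Oa is filled, on the right.

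H2-Aa and H2-Ab1 encode the alpha and beta chains of the I-A molecule. H2-Aa stood at 33.3, 23.7 and 38.8 FPKM in normal and at 9.97, 10.8 and 2.33 FPKM in model marrow. H2-Ab1 stood at 21.3, 27.3 and 28.2 FPKM in normal and at 7.15, 9.28 and 4.17 FPKM in model marrow. For both genes every model library lay below every normal library, and model 3 was the lowest. H2-Aa was 4.57-fold lower in model marrow (log2 fold change -2.19, SE 0.53, edgeR adjusted p = 0.0168) and H2-Ab1 4.07-fold lower (log2 fold change -2.03, SE 0.27, adjusted p = 0.000621). The call for H2-Aa was lost without the filter on low counts (adjusted p = 0.0607).

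H2-Eb1, the beta chain gene of the I-E molecule, differed widely between the mice of every group. It stood at 28.7, 2.55 and 39.3 FPKM in normal marrow, at 9.11, 9.35 and 0.898 in model, at 14.2, 0.455 and 0.202 in QJSB and at 1.74, 2.29 and 0.0756 FPKM in leucogen marrow. In each group the highest library exceeded the lowest by 10.4-fold or more, up to 70.4-fold in QJSB marrow, and the lowest leucogen value rests on 1 read. For H2-Ab1 the same ratio of highest to lowest library was between 1.32 and 7.17. Model and normal libraries overlapped, and the log2 fold change of H2-Eb1 was -2.01 with an SE of 1.12 (adjusted p = 0.206).

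Set against H2-Ab1 of the same library, H2-Eb1 was uneven within every group. In normal marrow there were 68.0, 4.71 and 70.2 reads of H2-Eb1 per 100 reads of H2-Ab1. The values were 64.1, 50.7 and 10.8 in model, 70.1, 6.21 and 7.14 in QJSB and 45.6, 74.1 and 1.32 in leucogen marrow. The log2 ratio differed by 0.22 between model and normal marrow (exact two-sided permutation test p = 1). The mouse with the lowest normal value, normal 2, had the most reads of H2-Ea-ps, the alpha chain locus of I-E that the reference lists as a pseudogene, with 163 reads against 53 and 80 in normal 1 and normal 3. By reads this did not hold in every group, since model 3, the lowest of the model mice, had the fewest. H2-Ea-ps had 6, 10 and 5 reads in model, 8, 11 and 3 in QJSB and 2, 1 and 2 in leucogen marrow. Per 100 reads of H2-Ab1 it had 7.48, 17.1 and 8.23 in normal and 2.32, 3.45 and 3.01 in model marrow. It had 1.95, 6.83 and 5.36 in QJSB and 3.51, 1.85 and 2.63 in leucogen marrow. On that scale the mouse lowest in H2-Eb1 was highest in H2-Ea-ps in normal and QJSB marrow. In model and leucogen marrow it was neither highest nor lowest. Reads of these outbred mice were mapped by the authors to the genome of an inbred strain, so less H2-Eb1 RNA and fewer H2-Eb1 reads that mapped cannot be told apart.

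**Figure D3:**
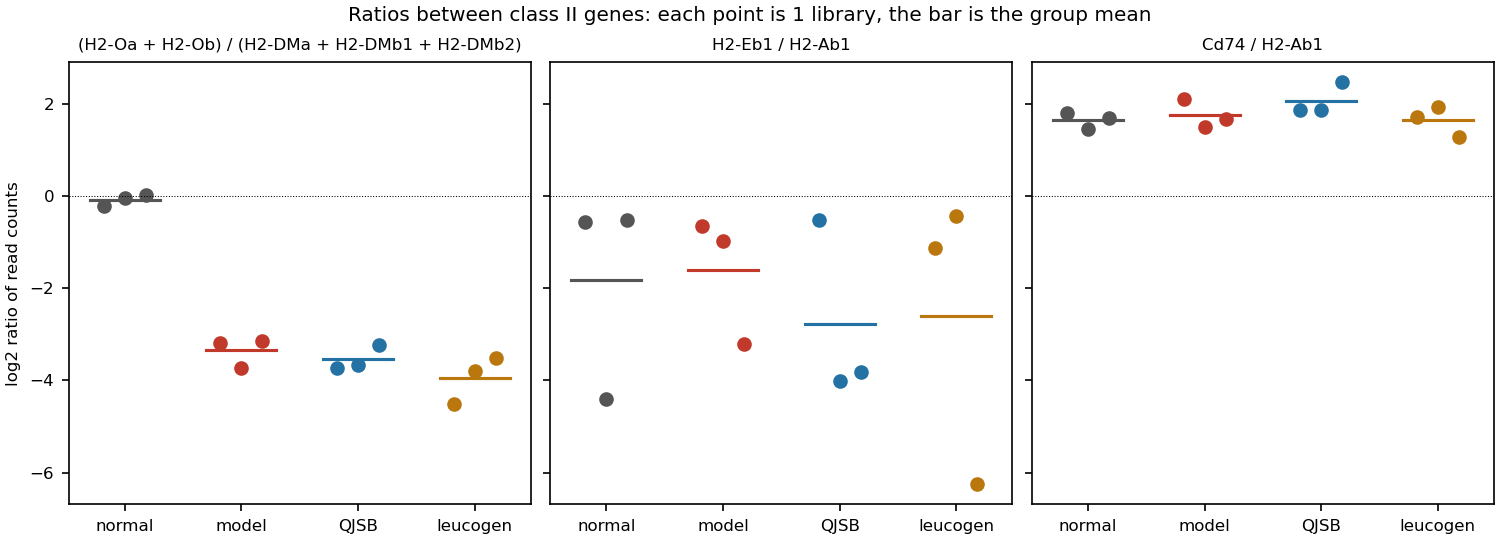
Log2 ratio of read counts (y axis) of the DO genes to the DM genes, H2-Eb1 to H2-Ab1 and Cd74 to H2-Ab1 in each library (points) of the 4 groups, with bars for group means. The DO to DM ratio is near 0 in normal libraries and between -3.14 and -4.50 in all others, Cd74 to H2-Ab1 differs little, and H2-Eb1 to H2-Ab1 is spread within each group.

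Cd74 encodes the invariant chain. It stood at 87.8, 87.6 and 107 FPKM in normal and at 36.0, 30.6 and 15.7 FPKM in model marrow, with no overlap. The gene was 3.76-fold lower (log2 fold change -1.91, SE 0.26, adjusted p = 0.00085). Its fall was close in size to that of H2-Ab1. There were 3.51, 2.73 and 3.22 reads of Cd74 per read of H2-Ab1 in normal marrow and 4.29, 2.81 and 3.21 in model marrow. The log2 ratio differed by 0.11 between the groups, less than its SD among the model mice of 0.31 (exact two-sided permutation test p = 0.7, with 0.1 the smallest p that 3 against 3 allows).

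The genes of the peptide exchange molecule DM did not move alike. H2-DMa, its alpha chain gene, stood at 7.50, 6.53 and 8.91 FPKM in normal and at 14.8, 8.68 and 5.42 FPKM in model marrow, which spans the normal values on both sides. Its log2 fold change was 0.19 (SE 0.31, adjusted p = 0.649) and became -0.20 without model 1. The beta chain gene H2-DMb1 stood at 4.68, 5.64 and 5.18 FPKM in normal and at 3.21, 2.45 and 3.49 FPKM in model marrow. H2-DMb2, the other beta chain gene, stood at 8.65, 7.30 and 9.98 FPKM in normal and at 3.89, 1.88 and 2.67 FPKM in model marrow. Both beta chain genes were lower in model marrow with no overlap, H2-DMb1 by 1.83-fold (log2 fold change -0.87, SE 0.22, adjusted p = 0.0127) and H2-DMb2 by 3.35-fold (log2 fold change -1.74, SE 0.25, adjusted p = 0.000981). The call for H2-DMb1 was lost without normal 2 (adjusted p = 0.0616).

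The transcripts of H2-DMb1 and H2-DMb2 were 94.6% identical over 1219 aligned bases of the GENCODE annotation. Of all 100-base windows, 45.3% of those of H2-DMb1 and 35.2% of those of H2-DMb2 matched the other gene with up to 2 mismatches, so the division of reads between them is uncertain. Their summed level, which does not depend on that division, was 30.3, 28.2 and 33.8 CPM in normal and 13.5, 8.28 and 12.4 CPM in model marrow. The sum stayed near the model level in the treated groups, at 13.9 ± 0.681 CPM in QJSB and 11.8 ± 0.616 CPM in leucogen marrow (SD, n = 3 each). H2-DMa shares 360 of its 3448 annotated exon bases with the opposite-strand gene Brd2. The libraries kept the strand, but whether strand was used in counting is not given in the sources used here.

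H2-Oa and H2-Ob encode the alpha and beta chains of DO, the inhibitor of DM. H2-Oa stood at 2.26, 2.31 and 3.66 FPKM in normal and at 1.37, 0.724 and 1.00 FPKM in model marrow. H2-Ob stood at 6.43, 6.56 and 8.44 FPKM in normal and at 0.417, 0.0967 and 0.108 FPKM in model marrow, where it rested on 35, 7 and 10 reads. Both were lower in every model library than in every normal library. H2-Oa was 2.88-fold lower (log2 fold change -1.53, SE 0.32, adjusted p = 0.00527) and H2-Ob 37.3-fold lower (log2 fold change -5.22, SE 0.46, adjusted p = 0.000121), the largest fitted difference among the 10 members. Without model 1, which held most of these reads, the log2 fold change of H2-Ob was -6.16. H2-Oa shares 321 of its 1407 exon bases with BC051537 on the opposite strand.

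The balance of DO to DM reads changed with it. Summed reads of H2-Oa and H2-Ob per read of H2-DMa, H2-DMb1 and H2-DMb2 were 0.867, 0.968 and 1.01 in normal marrow and 0.11, 0.0755 and 0.114 in model marrow. The mean log2 ratio was -0.08 ± 0.11 in normal and -3.35 ± 0.33 in model marrow (SD, n = 3 each), a difference of -3.27 (exact two-sided permutation test p = 0.1, the smallest that 3 against 3 allows). The ratio of the deposited FPKM values differed by -2.53 on the log2 scale. QJSB marrow stood at -3.54 ± 0.28 and leucogen marrow at -3.94 ± 0.51, so no treated library came near the normal values.

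Ciita encodes the class II transactivator. It stood at 6.58, 7.71 and 9.27 FPKM in normal and at 1.11, 1.26 and 0.686 FPKM in model marrow, with a wide gap between the groups. Ciita was 8.42-fold lower (log2 fold change -3.07, SE 0.24, adjusted p = 5.06e-05), more than any other member but H2-Ob. Of its 9535 exon bases, 329 are shared with Dexi on the opposite strand.

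Genes known to act on the Ciita promoter or in interferon gamma signalling, which induces it, went both ways. Of 9 tested, 2 were higher and 2 lower in model marrow, with a median log2 fold change of -0.11. Irf4, a lymphoid transcription factor, fell most (log2 fold change -4.66, SE 0.63, adjusted p = 0.00184), from 169, 142 and 149 CPM to 11.8, 4.60 and 1.81 CPM. Jak1, a kinase of the interferon receptors, was also lower (log2 fold change -0.89, adjusted p = 0.000563). Ifngr1, the ligand-binding chain of the interferon gamma receptor, was higher (log2 fold change 1.60, SE 0.12, adjusted p = 3.91e-05), and so was Spi1, the myeloid and B cell factor PU.1 (log2 fold change 0.89, adjusted p = 0.00646). Of the 7 genes of the RFX, NF-Y and CREB complex, only Nfyb passed both cutoffs, and it was lower (log2 fold change -0.72, adjusted p = 0.00392). The median of those 7 was -0.54.

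Genes that act around class II loading went both ways. Of 9 genes of endosomal processing, 3 proteases were higher in model marrow and none was lower. These were Ctsz (log2 fold change 1.67, adjusted p = 0.000255), Ctsl (1.21, adjusted p = 0.00127) and Ctss, which trims the invariant chain (0.85, adjusted p = 0.00901). Of 3 genes of class II turnover, 2 were lower, Cd83 (log2 fold change -3.70, adjusted p = 2.43e-05), which keeps class II molecules at the cell surface, and March8 (-2.47, adjusted p = 0.00152), a ubiquitin ligase. Of 4 costimulatory genes, Cd40 alone passed (log2 fold change -3.32, adjusted p = 0.000706). Of the related class II genes, H2-Ea-ps and H2-Eb2 were both lower (log2 fold changes -3.94 and -1.96, adjusted p = 0.000676 and 0.0079), and H2-Pa had no test. Cd4, the T cell partner of class II, was lower (log2 fold change -0.90, adjusted p = 0.0222).

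The class I pathway, which presents peptides from the cytosol to CD8+ T cells, had no gene that was lower. Of its 12 genes, 5 were higher in model marrow and 0 lower, with a median log2 fold change of 0.55 against -1.96 for the class II genes. Those that passed were Calr (log2 fold change 1.83, adjusted p = 0.000307) and Pdia3 (1.46, adjusted p = 0.000111), chaperones of the endoplasmic reticulum, Psmb8 (0.89, adjusted p = 0.00102), an immunoproteasome subunit, together with Erap1 and Psmb9. The class I heavy chain gene H2-D1 stood at 623 ± 35.4 CPM in normal and 908 ± 284 CPM in model marrow and did not pass. Nlrc5, the class I counterpart of Ciita, stood at 52.4 ± 8.89 and 77.5 ± 10.2 CPM (SD, n = 3). It missed only the fold cutoff (log2 fold change 0.56, edgeR adjusted p = 0.0289).

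**Figure D4:**
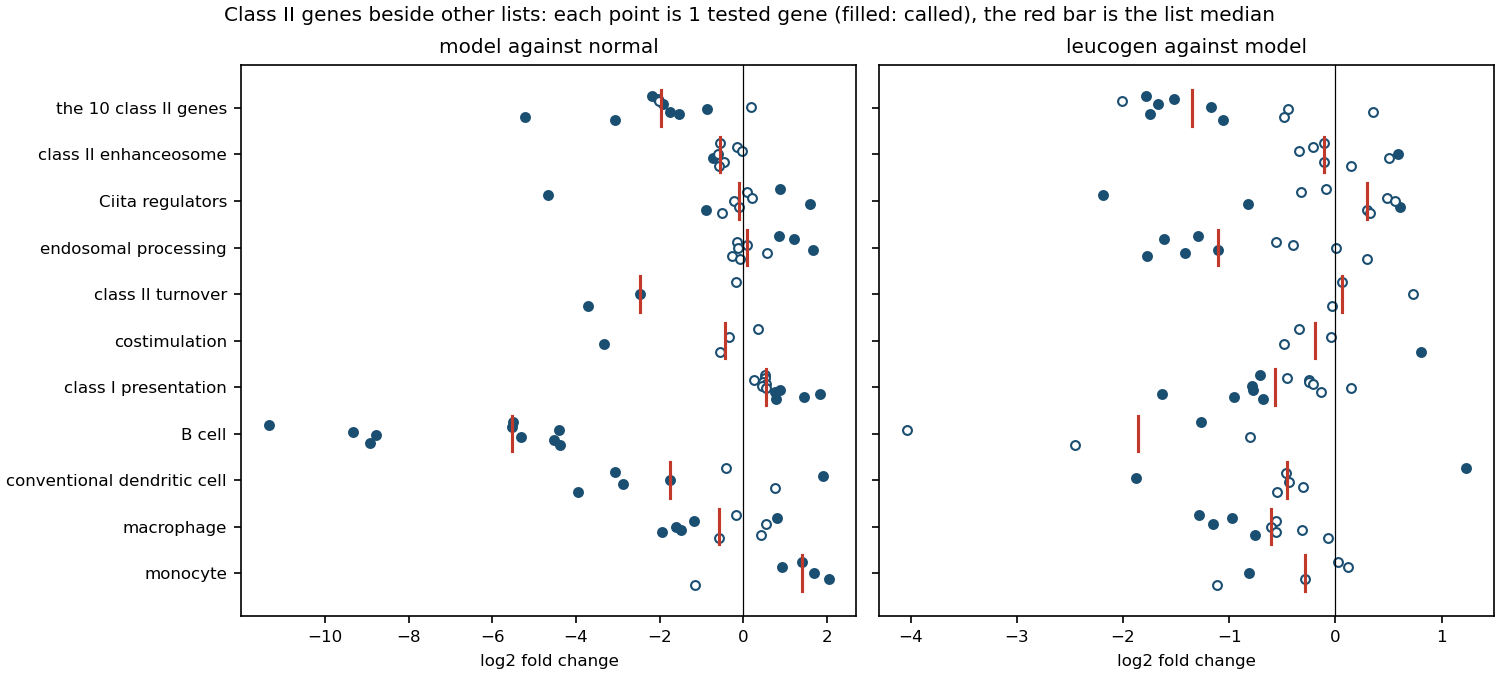
Log2 fold change (x axis) of each tested gene (points, filled where called) of the 10 class II genes and 10 other lists in model against normal and leucogen against model, with a red bar at each list's median. In model against normal 9 of the 10 class II genes and all 10 B cell markers lie left of 0, H2-DMa lies at 0.19, and class I and monocyte genes lie mostly right of 0.

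Markers of B cells, which carry class II molecules, were lower in model marrow, and so were erythroid markers (median log2 fold change -5.54). All 10 B cell markers were lower in model marrow (median log2 fold change -5.52), and their summed level fell from 1265 to 1333 CPM to 12.1 to 59.4 CPM. Ms4a1 (CD20) stood at 207, 258 and 227 CPM in normal marrow and at 0.231, 0 and 0 CPM in model marrow, where 4 reads were found in model 1. A count of 0 leaves room for a level of up to 0.212 CPM in model 2 and 0.175 CPM in model 3, for counting error only. Of the other lymphoid lists, 4 of 7 early B cell, 3 of 4 tested plasma cell and 6 of 6 T cell markers were lower and none was higher.

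Markers of myeloid carriers were mixed. Of the 7 conventional dendritic cell markers tested, 4 were lower, among them Ccr7 (log2 fold change -3.95), Zbtb46 (-3.07) and Cd209a (-2.89), and Flt3 was higher (1.92). The 9 markers of that list summed to 88.6 to 111 CPM in normal and 105 to 208 CPM in model marrow, and Flt3 carried the rise. Without Flt3, a split made after the values were seen, the other 8 summed to 63.6 to 74.0 CPM in normal and 16.7 to 34.8 CPM in model marrow. Of 9 macrophage markers, 4 were lower, among them C1qc (log2 fold change -1.94), C1qa (-1.61) and C1qb (-1.49), and Csf1r was higher (0.81). The macrophage markers summed to 567 to 625 CPM in normal and 397 to 579 CPM in model marrow. Of 7 plasmacytoid dendritic cell markers 2 were lower and none higher, and of 5 monocyte markers 4 were higher and none lower. Of 8 neutrophil markers 3 were lower, and of 7 erythroid markers 7 were lower, with none higher in either list. The part of any cell type in the fall of the class II genes was not tested.

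The comparison of QJSB with model marrow asks whether the granule changed the class II genes under cyclophosphamide. Of the 10 members, 9 were tested and 0 passed. Across all 14486 genes tested, 0% were called higher and 0% lower by edgeR, and DESeq2 called 8 genes. In edgeR 723 of the 14486 genes had an unadjusted p under 0.05, and a share of 0.05 is expected where no gene differs. With the replicate number as a block, since same-numbered mice of these 2 groups deviated together, 18 genes and 0 members were called. At the study's own cutoff, which uses unadjusted P, 3.08% of genes passed in either direction and again 0 members. The median log2 fold change over the 9 tested members was -0.31, against -0.02 over all genes tested.

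The QJSB mice differed widely in the chain genes. H2-Aa stood at 7.60, 2.48 and 1.19 FPKM in QJSB 1, QJSB 2 and QJSB 3, against 9.97, 10.8 and 2.33 FPKM in model marrow. H2-Ab1 stood at 10.2, 3.69 and 1.42 FPKM and Cd74 at 43.9, 15.9 and 9.24 FPKM in the QJSB mice. For each of these genes QJSB 1 lay within or above the model values and QJSB 3 lay below them all. The log2 fold changes against model were -0.98 (SE 0.72) for H2-Aa, -0.39 (SE 0.61) for H2-Ab1 and -0.20 (SE 0.52) for Cd74, with adjusted p of 0.784, 0.895 and 0.936. Without QJSB 3 those of H2-Ab1 and Cd74 became 0.06 and 0.17. Without QJSB 1 they became -1.89 for H2-Aa, -1.25 for H2-Ab1 and -0.95 for Cd74, and still did not pass (adjusted p of 0.294, 0.281 and 0.291).

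The other members overlapped as well. Ciita stood at 0.954, 0.267 and 0.307 FPKM in QJSB marrow, and its log2 fold change of -0.95 (SE 0.48) had an adjusted p of 0.767 and became -1.67 without QJSB 1 (adjusted p = 0.16). H2-DMa stood at 12.5, 5.65 and 4.09 FPKM (log2 fold change -0.31, SE 0.43). The beta chain genes were even among the mice, with H2-DMb1 at 2.81, 3.06 and 3.10 FPKM (log2 fold change 0.06, SE 0.28) and H2-DMb2 at 3.91, 3.38 and 3.22 FPKM (log2 fold change 0.41, SE 0.28). H2-Oa stood at 1.20, 0.815 and 0.82 FPKM (log2 fold change -0.05, SE 0.36). H2-Ob had only 9, 5 and 10 reads in QJSB marrow and was not tested. Mice were also matched by replicate number, which the titles do not state as a pairing. In 3 of 3 such pairs H2-Aa, H2-DMa and Ciita were lower in QJSB marrow and H2-DMb2 was higher. Of all genes tested, 15.6% were lower and 17.6% higher in all 3 pairs, and with the pairs as a block the adjusted p of these genes were 0.336, 0.602, 0.44 and 0.602.

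Within the model group, the libraries with more class II RNA also had more RNA of most cell type lists, and within the QJSB group of some. The 10 members summed to 164, 149 and 78.2 CPM in model and to 184, 83.2 and 52.7 CPM in QJSB marrow. Of the 10 cell type lists, 9 put the 3 model libraries in that order (all but the neutrophil list) and 5 put both the model and the QJSB libraries in it, those of macrophages, B cells, early B cells, plasmacytoid dendritic cells and erythroid cells. The 9 macrophage markers summed to 579, 490 and 397 CPM in model and 557, 476 and 417 CPM in QJSB marrow, with 0 markers at 0 reads. The B cell markers summed to 59.4, 20 and 12.1 CPM and to 16.1, 8.39 and 7.65 CPM, with up to 6 of 10 markers at 0 reads in a library. The early B cell markers summed to 173, 51.9 and 16.2 CPM and to 39.1, 6.88 and 6.85 CPM. The neutrophil markers were lowest in QJSB 1, at 6598, 33665 and 24750 CPM in the QJSB mice. The share of all genes that follow the members' order was not computed. In leucogen marrow, where the members' sums were nearly equal, 1 of the 10 lists followed their order. The part of any of these cells in the class II levels was not tested.

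Against the normal group, the same 8 members were called in QJSB marrow as in model marrow. Of the 10 members, 8 were lower and 0 higher, beside 19.9% of 14817 genes called lower and 18.0% called higher. H2-Ob was 84.1-fold lower (log2 fold change -6.39, SE 0.27, adjusted p = 9.38e-06) and Ciita 15.9-fold lower (log2 fold change -3.99, SE 0.43, adjusted p = 0.000314). H2-Eb1 (log2 fold change -2.35, SE 1.43) and H2-DMa (-0.09, SE 0.35) did not pass. Without QJSB 1 the log2 fold changes moved to -4.72 for Ciita, -4.05 for H2-Aa, -3.25 for H2-Ab1 and -2.84 for Cd74, from -3.14 for H2-Aa, -2.38 for H2-Ab1 and -2.08 for Cd74 with all 3 QJSB mice. H2-Eb1 then stood at -6.06 without passing (adjusted p = 0.0669), and H2-DMa passed with -0.60. The call for H2-Ab1 was lost without the filter on low counts (adjusted p = 0.0554) and that for H2-DMb1 without normal 2 (adjusted p = 0.0633). Both this comparison and that of model marrow use the same 3 normal libraries.

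Leucogen marrow had less class II RNA than model marrow. Of the 10 members, 6 were lower, 0 higher and 4 did not pass, with a median log2 fold change of -1.35 against -0.05 over all genes tested. Across all 14184 genes tested, 11.5% were called lower and 11.6% higher. The members summed to 53.3, 51.5 and 51.4 CPM in the leucogen mice, below every model library and with little spread.

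Cd74 stood at 7.35, 7.0 and 8.31 FPKM in leucogen marrow, well below the lowest model value of 15.7 FPKM. It was 3.19-fold lower than in model marrow (log2 fold change -1.68, SE 0.27, adjusted p = 0.00477) and passed under every alternative tried, with adjusted p of at most 0.0258. H2-Ab1 stood at 1.92, 1.55 and 2.89 FPKM, below all model values, and was 2.86-fold lower (log2 fold change -1.52, SE 0.34, adjusted p = 0.0132). H2-Aa stood at 2.53, 1.51 and 1.89 FPKM, overlapping model 3, and was 3.44-fold lower (log2 fold change -1.78, SE 0.53, adjusted p = 0.0462). H2-Oa fell to 0.29, 0.31 and 0.205 FPKM, which are 8, 10 and 5 reads, and was 3.35-fold lower (log2 fold change -1.74, SE 0.40, adjusted p = 0.015). H2-Ob, at 4, 12 and 11 reads, overlapped model marrow (log2 fold change -0.48, SE 0.66, adjusted p = 0.614).

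H2-DMa, which did not pass between model and normal marrow, stood at 4.20, 4.30 and 2.68 FPKM in leucogen marrow, below every model library. It was 2.26-fold lower than in model marrow (log2 fold change -1.18, SE 0.34, adjusted p = 0.0323). Ciita stood at 0.572, 0.309 and 0.426 FPKM and was 2.08-fold lower (log2 fold change -1.05, SE 0.34, adjusted p = 0.0445). The beta chain genes H2-DMb1 (log2 fold change -0.44, SE 0.27) and H2-DMb2 (0.35, SE 0.27) did not pass, nor did H2-Eb1 (-2.01, SE 1.06, adjusted p = 0.208).

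The calls against model marrow depended on single mice. Leaving out leucogen 1 left 1 of the 6 calls (Cd74) and leaving out leucogen 3 left 2 (Cd74 and H2-Ab1). Without leucogen 2, model 1 or model 2, 3 calls remained in each case (Cd74, H2-Ab1 and H2-Oa), and without model 3 all 6 remained. One fit of all 12 libraries called 3 (Cd74, H2-DMa and H2-Oa). Direction changed for none of the 6 under these settings. With totals in place of TMM scaling, 30.2% of all called genes were higher in leucogen than in model marrow, against 50.1% with TMM, and the same 6 members passed.

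Some other lists of antigen presentation also held genes that were lower in leucogen than in model marrow. Of 9 endosomal processing genes, 5 were lower and 0 higher (median log2 fold change -1.11). Ifi30, a thiol reductase that unfolds antigens, fell from 60.2, 45.7 and 63.8 CPM in model to 17.3, 18.5 and 13.2 CPM in leucogen marrow (log2 fold change -1.77, adjusted p = 0.00177). Ctsl (log2 fold change -1.61, adjusted p = 0.00201), Lgmn (-1.42, adjusted p = 0.00202) and Ctss (-1.29, adjusted p = 0.00389) are proteases of that list that were lower, together with Ctsz. Of 12 class I genes, 6 were lower and 0 higher, led by Calr (log2 fold change -1.63, adjusted p = 0.00302). The mean of Calr went from 1167 ± 337 CPM in model to 371 ± 68.8 CPM in leucogen marrow (SD, n = 3). The 12 class I genes summed to 1934 to 2072 CPM in normal, 3330 to 4719 CPM in model and 2150 to 2310 CPM in leucogen marrow. Against normal marrow, 2 of them were higher in leucogen marrow and 0 lower, unlike the class II genes. Of 4 costimulatory genes, 1 was higher in leucogen than in model marrow and 0 lower.

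Marker lists shifted between these groups as well. Of 9 macrophage markers 4 were lower in leucogen marrow and 0 higher, and they summed to 310 to 358 CPM against 397 to 579 CPM in model marrow. Of 6 conventional dendritic cell markers tested, Flt3 was lower and Clec9a higher, and the list summed to 58.1 to 61.5 CPM against 105 to 208 CPM. Without Flt3 the other 8 summed to 27.0 to 31.5 CPM in leucogen and 16.7 to 34.8 CPM in model marrow. Neutrophil markers summed to 45449 to 54080 CPM in leucogen and 4131 to 17938 CPM in model marrow, and 6 of 8 were higher. B cell markers summed to 6.57 to 8.34 CPM in leucogen marrow, with Cr2 at 0 reads in all 3 libraries. The part of these shifts in the class II values was not tested.

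QJSB and leucogen marrow differed for a single member by the adjusted cutoff. Of 9 members tested, 1 was higher in QJSB marrow and 0 lower, beside 12.9% of 14266 genes called higher and 11.7% called lower. That gene was H2-Oa, at 1.20, 0.815 and 0.82 FPKM in QJSB and 0.29, 0.31 and 0.205 FPKM in leucogen marrow, 3.24-fold higher (log2 fold change 1.70, SE 0.37, adjusted p = 0.0118). Without leucogen 3 its adjusted p was 0.0628. Cd74 and H2-DMb1 did not overlap between the groups either. The log2 fold change of Cd74 was 1.47 (SE 0.49, adjusted p = 0.0628) and that of H2-DMb1 0.50 (SE 0.25, adjusted p = 0.16). The share of all genes without overlap was not computed for this comparison. H2-DMa (log2 fold change 0.87, SE 0.37, adjusted p = 0.11) and H2-Ab1 (1.13, SE 0.63, adjusted p = 0.214) did not pass. Without QJSB 3, 4 members were called (Cd74, H2-DMa, H2-Ab1 and H2-Oa). Without QJSB 1, 2 were called (Cd74 and H2-Oa), and the log2 fold changes fell to 0.72 for Cd74 and 0.26 for H2-Ab1. Of 9 endosomal processing genes, 7 were higher in QJSB than in leucogen marrow and 0 lower, led by Ctsl (log2 fold change 1.74, adjusted p = 0.00272) and Ifi30 (1.68, adjusted p = 0.00359).

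Set against normal marrow, leucogen marrow had less RNA of most class II genes. Of the 10 members, 9 were lower and 0 higher, beside 19.8% of 14637 genes called lower and 17.8% called higher, and the median log2 fold change was -3.56 against -0.01 over all genes tested. Cd74 was 11.9-fold lower (log2 fold change -3.58, SE 0.12, adjusted p = 3.17e-08), H2-Aa 15.6-fold, H2-Ab1 11.7-fold and H2-Oa 9.55-fold lower. Ciita was 17.4-fold lower (log2 fold change -4.12, SE 0.22, adjusted p = 3.03e-07). H2-DMa passed here with a log2 fold change of -0.97 (SE 0.20, adjusted p = 0.0023), though not in one fit of all 12 libraries (adjusted p = 0.0603). H2-Eb1 did not pass (-3.98, SE 1.36, adjusted p = 0.0696), but DESeq2 and limma called it (adjusted p = 0.00951 and 0.0394). Without normal 2, the normal mouse with few H2-Eb1 reads, H2-Eb1 passed as well (log2 fold change -4.51, adjusted p = 0.0136).

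The genes whose profile over the 12 libraries was most like the mean of H2-Aa, H2-Ab1, H2-Eb1 and Cd74 were sought among 13838 genes with a mean of at least 1 CPM, by the root mean square difference of centred log2 CPM. Of the genes that form this mean, H2-Aa had rank 1 with 0.33, Cd74 rank 3 with 0.49, H2-Ab1 rank 6 with 0.53 and H2-Eb1 had 1.14. Each of them was compared with a mean that holds it, so their closeness is partly fixed in advance. Of the members outside the mean, Ciita had 0.72 and H2-Oa 0.94. H2-Ob, with 1.62, ranked 5468 and was least like the mean. The 6 other genes most like it were 5830418P13Rik (0.49), Mcoln2 (0.51), Gnb4 (0.51), Aff3 (0.59), Omp (0.61) and Mns1 (0.62). Mcoln2, an endolysosomal cation channel, stood at 21.9, 17.1 and 19.4 CPM in normal, 7.16, 5.24 and 2.68 in model, 3.56, 1.57 and 0.979 in QJSB and 1.90, 2.03 and 1.61 CPM in leucogen marrow. Aff3, a nuclear protein of lymphoid cells, stood at 121, 105 and 111 CPM in normal and at no more than 41.8 CPM in any other library. Since likeness chose these 6 genes, their low values in the same libraries are a description.

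**Figure D5:**
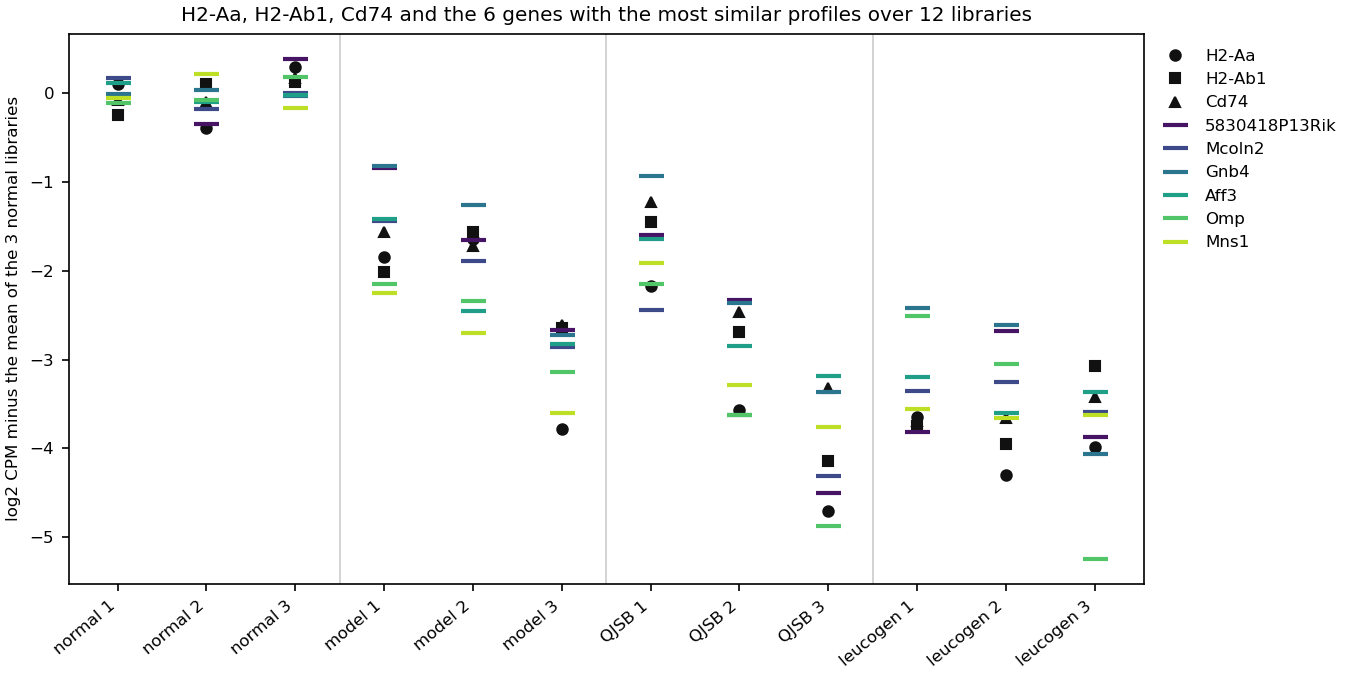
Log2 CPM minus the mean of the 3 normal libraries (y axis) in each of the 12 libraries (x axis) for H2-Aa, H2-Ab1 and Cd74 (black symbols) and for the 6 other genes with the most similar profiles (coloured bars). All 9 genes lie below 0 in every cyclophosphamide library, and model 1, model 2 and QJSB 1 lie nearest to the normal libraries for most of them.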

How the data were processed

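RNA of femoral bone marrow from 12 mice was sequenced by the authors from strand-specific libraries after removal of ribosomal RNA. Reads were cleaned with Seqtk and aligned by Hisat2 2.0.4 against GRCm38.p4. The program that counted reads and the annotation are not given in the sources used here. The deposited table holds whole-number read counts per gene and library, without normalization. It also holds FPKM, computed by the authors from fragments, transcript length and library size. Columns headed Blank, Positive and Stilbene were assigned to the normal, leucogen and QJSB groups by meaning and elimination, and this assignment was then checked against mean levels listed by the study.

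The members, the gene lists and the tests were chosen with earlier results of these data known. Counts were tested with edgeR 4.0.16 in R 4.3.3 (TMM, filterByExpr, robust quasi-likelihood fit), with only the libraries of the 2 groups compared in each fit and Benjamini-Hochberg adjustment over all genes tested. The tests were first tested on simulated counts. Ratios of members were compared by exact two-sided permutation tests. Total counts limit the precision of low genes, and chi-square values between mice of a group exceeded counting error for every pair. Every member was named. Of each other list, at most 4 genes past both cutoffs with the largest change were named per comparison, together with genes that a ratio or a check of the tissue label turned on. Windows and motifs were read in Python 3.11 from RefSeq and GENCODE tables.

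Replicate numbers come from the sample titles. Deviations from the group means correlated over 0.1 for every number in QJSB and model marrow (r of 0.43, 0.12 and 0.10). For no other comparison did every number pass, though QJSB against leucogen came close (r of 0.18, 0.13 and 0.080). The numbers were used as a block for QJSB and model marrow on this ground alone. The titles state no pairing, the paper reports random allocation, and mice of unlike number were not compared. Whether the numbers pair mice was therefore not tested. The alternatives were leaving out each library, the replicate block, a single fit of all 12 libraries, no filter or a filter of 10 counts per library, scaling by totals or by DESeq2 size factors, DESeq2 1.42.0 unfiltered, and limma-trend (limma 3.58.1) on log2(FPKM + 0.1) where the mean FPKM was 0.1 or more.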

Additional observations from a re-analysis of the deposited data

How the results depend on the processing

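The 8 calls of model against normal kept their direction under every alternative. The replicate block, under which the numbers of these 2 groups share only a name, left 7 of them (H2-Aa was lost, log2 fold change -2.36, edgeR adjusted p = 0.0758). H2-Aa was also lost without a filter and H2-DMb1 without normal 2, and H2-Ob was not tested at 10 counts in every library. The H2-DMa difference ran from -0.20 to 0.46 over the left-out libraries, that of the H2-Eb1 to H2-Ab1 ratio from -1.08 to 1.01 and that of the Cd74 to H2-Ab1 ratio from -0.064 to 0.24. For QJSB against model, the genes called were 8 with DESeq2, 18 with the replicate block and 0 to 3 without single libraries, with 0 members under each. There the log2 fold changes ran, over the left-out libraries, from -1.25 to 0.057 for H2-Ab1, -4.07 to 0.19 for H2-Eb1, -0.95 to 0.17 for Cd74, -0.81 to 0.090 for H2-DMa, -0.071 to 0.21 for H2-DMb1 and -0.24 to 0.16 for H2-Oa, and that of H2-DMb1, which passed under none of these, was -0.032 with totals and -0.016 with limma. For leucogen against model, the genes called ran from 1239 to 3953 and the members called from 1 to 6 over the left-out libraries, H2-Ob ran from -0.78 to 0.47, and one fit of all 12 libraries called 3 members. The replicate block called 5 members there, with H2-Eb1 gained (log2 fold change -2.16, adjusted p = 0.00908) and H2-Aa and Ciita lost (adjusted p = 0.0622 and 0.0711). For QJSB against leucogen, the genes called ran from 1544 to 3585 and the members called from 0 to 4 over the left-out libraries, with 2 members called by DESeq2 and by the fit of all 12 libraries and 0 with 10 counts in every library, where H2-Oa was not tested. The log2 fold changes of single members in this comparison and in both treated groups against normal were recomputed as a choice made after seeing the data. Over the left-out libraries QJSB against leucogen ran from -0.11 to 1.20 for H2-Aa, -2.07 to 2.24 for H2-Eb1, -0.0056 to 0.095 for H2-DMb2 and -0.62 to 0.40 for Ciita (-0.032 with the replicate block), and H2-DMa in QJSB against normal from -0.60 to 0.19. Totals in place of TMM moved the median over all tested genes (log2 fold change) from 0.02 to 0.14 for model against normal and from -0.05 to -0.22 for leucogen against model, with the same members called. The block changed no member count against normal in the treated groups. Fewer libraries give fewer residual degrees of freedom, and the cause of the other changes was not tested. Depth limits H2-Ob, H2-Oa and H2-Eb1, which had 12 reads or fewer in 1 or more libraries after cyclophosphamide.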
